A study of Mus musculus with 8 samples.

Results

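The macrophage colony-stimulating factor axis and the receptor chains for granulocyte-macrophage colony-stimulating factor (GM-CSF) were followed through 7 genes in mouse atherosclerotic lesions: the ligand genes Csf1 and Il34, their shared receptor gene Csf1r, the receptor chain genes Csf2ra, Csf2rb and Csf2rb2, and Spi1, which encodes the transcription factor PU.1. The genes were taken by symbol, and all 7 were found among the 24391 genes of the count table. Bulk RNA sequencing had been done on the brachiocephalic artery, a short branch of the aortic arch where advanced plaques form, from C57BL/6 mice fed a Western diet for 18 weeks. All animals came from a smooth muscle lineage-tracing line described as wild type. One group of 4 animals received an antibody against interleukin-1β (labelled IL1_AB) and the other group of 4 received immunoglobulin G (IgG, labelled IgG_Control). The labels do not state the Cre driver, the lineage reporter, any atherosclerosis-prone allele, the age and sex of the animals or the dose and duration of the antibody, and they describe each sample as a mixture of smooth muscle, epithelial, macrophage and other cells.

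CSF1 and IL-34 are secreted cytokines that bind the same receptor tyrosine kinase, CSF1R, which macrophages and their precursors need to survive and multiply. GM-CSF acts through a receptor built from a ligand-binding alpha chain, encoded by Csf2ra, and a signalling beta chain. Mice carry a pair of beta chain genes: Csf2rb encodes the chain shared by the receptors for GM-CSF, interleukin-3 and interleukin-5, and Csf2rb2 encodes a chain used for interleukin-3. PU.1 is a myeloid transcription factor that binds GA-rich sites, and Csf1r and the GM-CSF receptor genes are textbook targets of it. In atherosclerotic arteries these receptors are known mainly from macrophages, monocytes and dendritic cells, and CSF1 is made by endothelial, smooth muscle and other stromal cells.

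Because the beta chain genes are close copies, their sequences set how reads can be told apart. Over 4522 aligned bases without gaps, the Csf2rb and Csf2rb2 transcripts of GENCODE M21 (GRCm38) were identical at 94% of positions, and at 95.3% of 2629 coding positions. The longest stretch shared without a difference was 242 bases. Of all windows of 50 bases in the Csf2rb transcript, 18.9% also occurred in Csf2rb2, and for windows of 100 bases the share was 7.16%. The stretches below are 60 coding bases of each gene, from inside 1 exon, 5′ to 3′, at chr15:78335230-78335289 on the plus strand for Csf2rb and chr15:78298147-78298206 on the minus strand for Csf2rb2, with the 3 differing bases in capitals. They were taken as the first such stretch with a number of differences near the coding average.
Csf2rb: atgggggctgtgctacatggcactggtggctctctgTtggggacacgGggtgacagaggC
Csf2rb2: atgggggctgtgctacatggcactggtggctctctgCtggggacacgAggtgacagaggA

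RefSeq start sites (GRCm38.p6) were matched for 3 of the 7 genes, and the 250 bases upstream are shown because Spi1 is a member and its factor binds a core site, the PU box GAGGAA. Capitals mark PU boxes on either strand and, in Csf1, a match to the NF-kB consensus, which is the site of the factor that interleukin-1 signalling activates. The windows lie at chr3:107760470-107760719 for Csf1, chr19:61228419-61228668 for Csf2ra and chr15:78305722-78305971 for Csf2rb2, all on the minus strand.
Csf1: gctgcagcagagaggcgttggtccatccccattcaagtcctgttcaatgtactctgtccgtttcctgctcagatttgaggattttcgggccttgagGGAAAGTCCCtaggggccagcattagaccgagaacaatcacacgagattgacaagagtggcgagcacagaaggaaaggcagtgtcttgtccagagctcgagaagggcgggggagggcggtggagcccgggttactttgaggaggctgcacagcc
Csf2ra: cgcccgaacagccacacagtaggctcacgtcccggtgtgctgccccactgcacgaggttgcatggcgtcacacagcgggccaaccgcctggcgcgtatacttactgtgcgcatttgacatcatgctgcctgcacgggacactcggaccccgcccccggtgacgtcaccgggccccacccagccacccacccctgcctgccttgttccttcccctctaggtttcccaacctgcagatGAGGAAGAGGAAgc
Csf2rb2: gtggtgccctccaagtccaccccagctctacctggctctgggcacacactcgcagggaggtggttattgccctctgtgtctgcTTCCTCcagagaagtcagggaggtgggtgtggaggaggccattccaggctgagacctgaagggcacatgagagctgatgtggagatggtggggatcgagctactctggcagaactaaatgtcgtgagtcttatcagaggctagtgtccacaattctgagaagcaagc

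The Csf2ra window held 2 PU boxes side by side, at positions -14 and -8 from the start site, and the Csf2rb2 window held 1 on the opposite strand. No PU box letters were found in the Csf1 window, which held 1 NF-kB match at position -154. Over 32544 RefSeq promoter windows of the same 250 bases, 23.4% held at least 1 PU box and 3.56% held 2 or more, and 7.28% held an NF-kB match. These matches describe the letters only.

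The libraries held 20137336 to 29453014 counts assigned to genes, and the 7 genes had between 92 counts (Il34, in IgG animal 3) and 8630 counts (Csf1r, in IgG animal 4) per library. All 15 macrophage markers passed the low-count filter, with summed levels of 5808 to 15794 CPM (the count scaled to a library of fixed size) in IgG and 7308 to 10635 CPM in the antibody group, and all 7 smooth muscle markers passed it. Of the 7 epithelial markers, Epcam, Krt5 and Krt14 did not pass, and the list summed to 11.8 to 41.4 CPM in IgG and 8.62 to 14.2 CPM in the antibody group. IgG animal 1 stood apart: it had the lowest macrophage sum (5808 CPM) and dendritic cell sum (179 CPM, against 282 to 554 in the other IgG animals), and the highest B cell (25.2 CPM), T cell and thymus (115 CPM) and epithelial (41.4 CPM) sums. A high T cell and thymus sum was not its alone: antibody animal 2 had 95.1 CPM, against 16.7 to 33.8 CPM in the remaining animals. The next B cell sum was 18.5 CPM, in IgG animal 4. The fold changes of the 7 genes are therefore also given without IgG animal 1. Correlations with the macrophage markers were not computed without it. The adipocyte markers summed to 4432 to 4536 CPM in IgG and 3558 to 9162 CPM in the antibody group. The smooth muscle sums were 2243 to 2961 and 1453 to 3972 CPM, and the fibroblast sums 2088 to 4557 and 1633 to 3405 CPM. Antibody animal 3 had the highest adipocyte sum, 9162 CPM against 3558 to 5231 CPM in the rest of its group. Its smooth muscle (1453 CPM) and fibroblast (1633 CPM) sums were the lowest. The part of fat content in the levels of the 7 genes was not tested.

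Per exon length, Csf1r had the highest mean level of the 7 genes and Il34 the lowest, below every other gene in all 8 libraries. Csf1r had 55.5 ± 10.9 CPM per kb of exon (SD over all 8 animals), which placed it at percentile 93.5 of the 15980 genes kept, and it exceeded the next gene, Csf2ra (37.7 ± 9.16 CPM per kb), in all 8 libraries. Csf2ra and Spi1 (34.2 ± 6.28 CPM per kb) did not differ beyond their spread, with Csf2ra higher in 5 of 8 libraries. Spi1 in turn was above Csf2rb (28.8 ± 6.41 CPM per kb) in 8 of 8 libraries, and Csf2rb above Csf2rb2 (19.5 ± 3.70 CPM per kb) in 8 of 8, although the ranges over animals overlapped. For the beta chain genes this level is too low by an unknown amount, since reads placed at several sites were left out and the stretches that both genes share are part of the length. Their order against Spi1 and Csf2ra is therefore not settled.

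**Figure D1:**
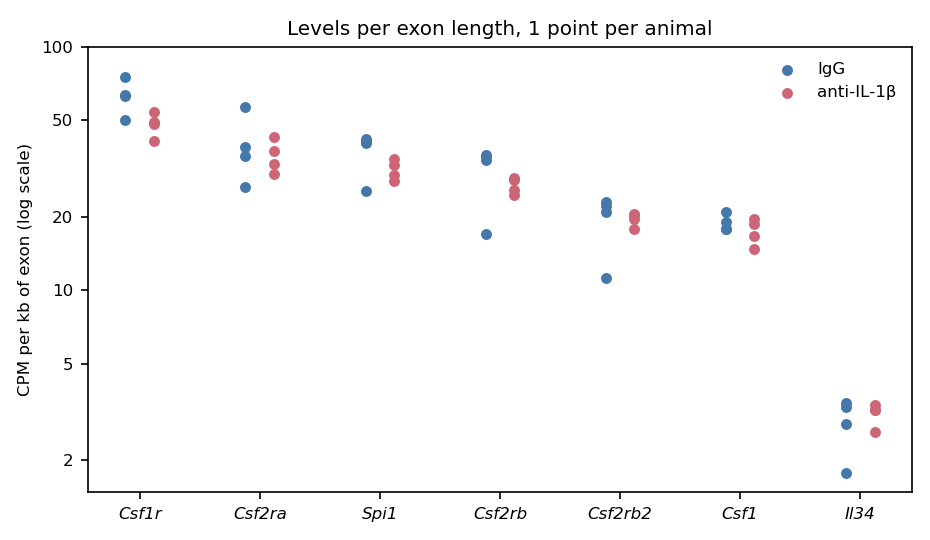
Level of each gene per kilobase of exon (CPM per kb, log axis), 1 point per animal, IgG in blue and antibody in red, ordered by the mean. Csf1r lies highest at 41.0 to 75.1 CPM per kb and Il34 lowest at 1.78 to 3.44 CPM per kb.

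Csf1 had 18.2 ± 1.89 CPM per kb, within the spread of Csf2rb2, and lay above it in 1 of 8 libraries. It varied least of the 7 genes relative to its mean, between 14.8 and 21.0 CPM per kb. Il34 had 2.97 ± 0.558 CPM per kb, percentile 30 of the genes kept, and its range did not touch that of Csf1. Within each library Csf1 was 4.94 to 9.98 times as abundant as Il34 per exon length, with a median of 5.93. The more abundant ligand transcript in these whole artery samples was therefore Csf1 in every animal.

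With the antibody, none of the 7 genes passed the test over all genes, and Csf1r had the lowest p of them. In edgeR's quasi-likelihood fit 0 of 7 passed an adjusted p of 0.05 (adjusted p = 0.9997 for each), as did 0% of the 15980 genes tested. DESeq2 called 8 of the 15980 and limma-voom 2, none of them among the 7. At an unadjusted p under 0.05, 1 of the 7 (Csf1r) was lower and 0 were higher, against 2.06% of all genes lower. Fold changes were below 0 for 5 of the 7, with a median log2 fold change of -0.14, where 52.3% of all genes were below 0 with a median of -0.010. For none of the 7 did the groups separate, while 1.25% of all genes had every antibody value below every IgG value.

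**Figure D2:**
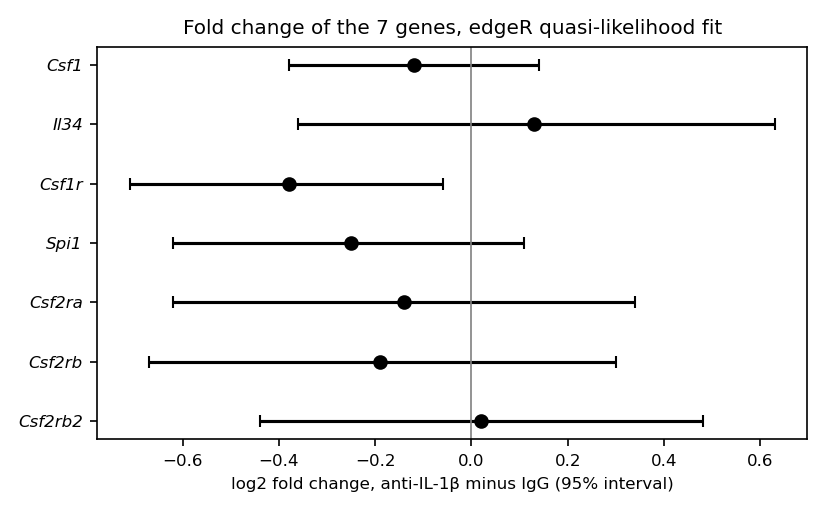
Log2 fold change of each gene, antibody minus IgG, with its 95% interval from the edgeR fit on 4 animals per group. The Csf1r interval, -0.71 to -0.06, is the one that lies below 0, and the other 6 intervals span 0.

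The ligand genes showed no difference beyond the spread between animals. Csf1 (mm9 chromosome 3, 107543966 to 107563387, 10 exons) was measured at 78.8, 92.6, 79.2 and 84.6 CPM in IgG animals 1 to 4 and at 86.8, 82.8, 65.3 and 73.9 CPM in the antibody group 1 to 4. The groups overlapped, with antibody animals 3 and 4 below all IgG animals and antibody animal 1 above 3 of them. Its log2 fold change was -0.12 ± 0.12 (SE), with a 95% interval of 0.77-fold to 1.10-fold. Without antibody animal 3, the lowest, the log2 fold change was -0.05 ± 0.11, and without IgG animal 1 it was -0.15 ± 0.13.

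Il34 (mm9 chromosome 8, 113265729 to 113329824, 8 exons) was measured at 6.39, 6.13, 3.32 and 5.26 CPM in IgG animals 1 to 4. In antibody animals 1 to 4 it was at 6.00, 5.99, 4.85 and 6.27 CPM, all inside the IgG range. The log2 fold change was 0.13 ± 0.22 and rested on the low IgG animal 3: without it the value was -0.04 ± 0.17. Without IgG animal 1 it was 0.24 ± 0.24. IgG animal 3 also had the highest macrophage marker sum (15794 CPM), and the part of cell composition in its low Il34 value was not tested. The ratio of Csf1 to Il34 was 5.17, 6.33, 9.98 and 6.74 for IgG animals 1 to 4, against 6.06, 5.79, 5.63 and 4.94 in the antibody group, a difference of -0.29 in log2 ratio (exact permutation test, two-sided, p = 0.2, adjusted p = 0.4 over 6 ratios, n = 4). It was -0.11 without IgG animal 3. Without IgG animal 1 it was -0.43, with every remaining IgG value above every antibody value (exact permutation test, adjusted p = 0.0857).

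**Figure D3:**
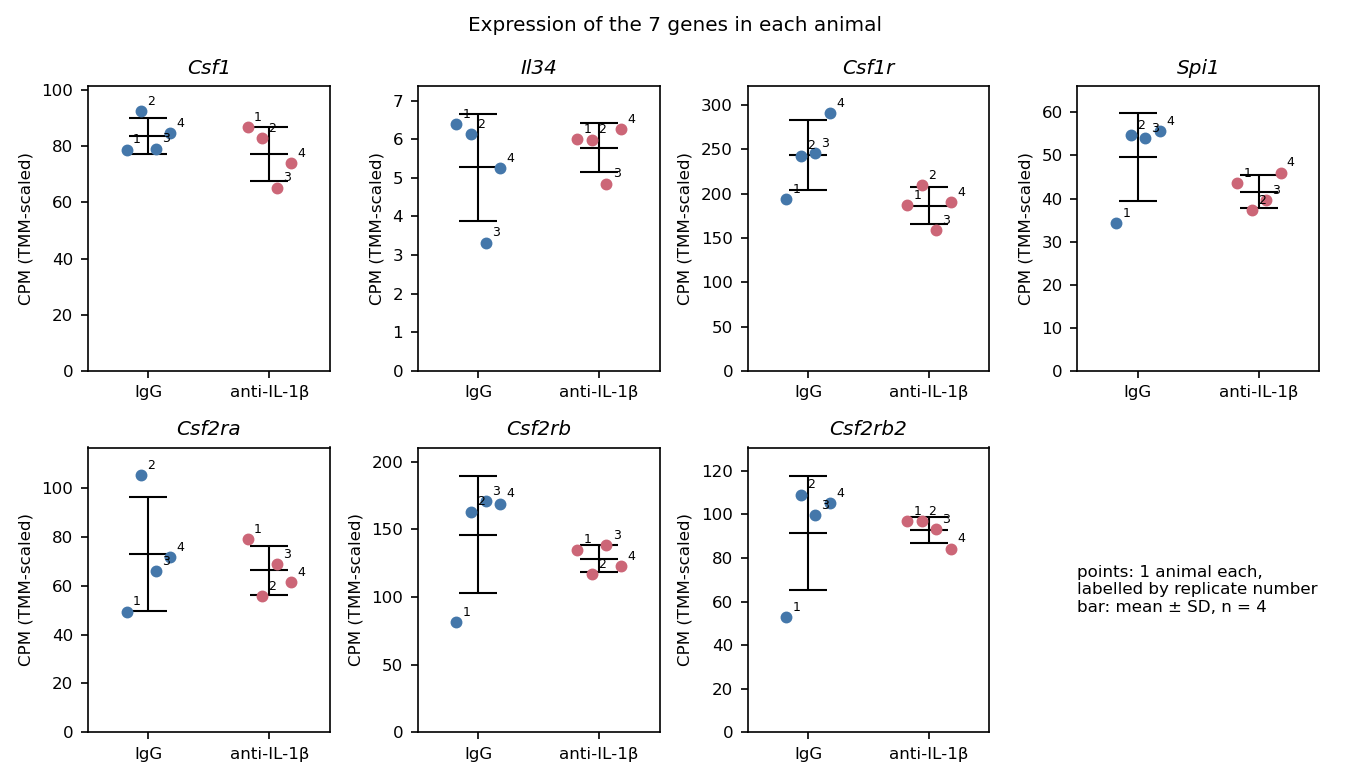
CPM (TMM-scaled, axis from 0) of each gene in each animal, IgG in blue and antibody in red, with the replicate number beside each point and bars for the mean ± SD of 4 animals. IgG animal 1 is the lowest of its group for every gene except Il34, for which it is the highest.

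Csf1r, the receptor for both ligands, was lower in the antibody group at an unadjusted level only. It lies on mm9 chromosome 18 from 61265226 to 61290793 with 22 exons. The IgG animals had 194, 243, 246 and 291 CPM and the antibody animals 187, 210, 159 and 190 CPM. The groups touched at IgG animal 1: the other 3 IgG animals lay above every antibody animal, and 3 of 4 antibody animals lay below every IgG animal. The means were 244 ± 39.6 and 187 ± 20.9 CPM (SD, n = 4), a fold of 0.766 with a 95% interval of 0.610 to 0.962 (edgeR log2 fold change -0.38 ± 0.15, unadjusted p = 0.0265, adjusted p = 0.9997). In whole artery samples, fewer Csf1r-expressing cells and less Csf1r RNA per cell cannot be told apart.

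The estimated Csf1r difference changed with the animal left out and with a macrophage covariate in the fit. Without IgG animal 1 the edgeR log2 fold change was -0.47 ± 0.14 (unadjusted p = 0.00669, adjusted p = 0.511), and without IgG animal 4, the highest, it was -0.29 ± 0.15 (unadjusted p = 0.0899). Without antibody animal 1, 3 or 4 it was -0.39, -0.32 and -0.39 (edgeR unadjusted p = 0.0529, 0.0696 and 0.0502). The edgeR unadjusted p stayed under 0.05 without IgG animal 2 or 3 or antibody animal 2 (0.0413, 0.0461 and 0.0208). With the mean log2 level of the macrophage markers as a covariate, the edgeR log2 fold change was -0.28 ± 0.13 (unadjusted p = 0.0615). The marker sum used below leans on 1 gene, unlike that mean. This gene, Lyz2, averaged 5274 CPM with IgG and 3775 CPM with the antibody. As a share of the summed macrophage marker counts, Csf1r stood at 0.0334, 0.0277, 0.0156 and 0.0232 for IgG animals 1 to 4, against 0.0250, 0.0287, 0.0211 and 0.0179 in the antibody group. These ratios overlapped throughout, with a log2 difference of -0.08 (exact permutation p = 0.83, adjusted p = 0.886, n = 4). Set against its more abundant ligand, Csf1r per exon length was 2.81, 3, 3.55 and 3.92 times Csf1 in IgG animals and 2.46, 2.89, 2.78 and 2.94 times in the antibody group, a log2 difference of -0.25 (exact permutation p = 0.114, adjusted p = 0.343, n = 4). Without IgG animal 1 this difference was -0.33 and the groups did not overlap (exact permutation test, adjusted p = 0.0857), and that of Csf1r to the macrophage markers was 0.08.

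Spi1 (mm9 chromosome 2, 90936954 to 90955913, 5 exons) gave 34.3, 54.7, 54.0 and 55.7 CPM in IgG animals 1 to 4 and 43.5, 37.3, 39.7 and 46.0 CPM in the antibody group. IgG animal 1 was below all 7 other animals, and the other 3 IgG animals were above all antibody animals. The log2 fold change was -0.25 ± 0.16 (95% interval -0.62 to 0.11) with all animals and -0.39 ± 0.11 without IgG animal 1 (edgeR unadjusted p = 0.00641, adjusted p = 0.511). With any other animal left out it lay between -0.31 and -0.20 (edgeR unadjusted p from 0.13 to 0.307). As a share of macrophage marker counts Spi1 did not separate the groups, at 0.00342 to 0.00622 in IgG and 0.00432 to 0.00582 in the antibody group (log2 difference 0.07, exact permutation p = 0.8, adjusted p = 0.886, n = 4, and a difference of 0.16 without IgG animal 1).

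The GM-CSF receptor chains overlapped between the groups. Csf2ra, the alpha chain (mm9 chromosome 19, 61300305 to 61304321, 12 exons), had 49.4, 105, 66.0 and 71.7 CPM in IgG animals and 79.0, 55.8, 68.8 and 61.4 CPM in the antibody group. The IgG values spanned more than a doubling and enclosed all 4 antibody values. Its log2 fold change of -0.14 ± 0.21 became 0.09 ± 0.16 without IgG animal 2, the highest, and -0.29 ± 0.19 without IgG animal 1, the lowest.

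Csf2rb (mm9 chromosome 15, 78156420 to 78181431, plus strand, 14 exons) had 81.4, 163, 171 and 169 CPM in IgG animals 1 to 4 and 135, 117, 138 and 123 CPM in the antibody group. Csf2rb2, its neighbour in the opposite orientation (78112938 to 78136151, 14 exons), had 52.9, 109, 99.5 and 105 CPM in IgG animals and 97.0, 96.7, 93.1 and 84.2 CPM in the antibody group. In both genes IgG animal 1 was lowest of all and the other 3 IgG animals were above all antibody animals. The log2 fold changes were -0.19 ± 0.22 for Csf2rb and 0.02 ± 0.20 for Csf2rb2. Without IgG animal 1 they were -0.38 ± 0.10 (edgeR unadjusted p = 0.00499, adjusted p = 0.508) and -0.17 ± 0.10 (unadjusted p = 0.135, adjusted p = 0.657). With any other animal left out, Csf2rb lay between -0.22 and -0.10 (edgeR unadjusted p from 0.39 to 0.669) and Csf2rb2 between -0.01 and 0.11.

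Of the 7 genes, Csf1r, Spi1 and Csf2rb had an unadjusted p under 0.05 without IgG animal 1, all lower. That animal was the lowest of its group for each of these genes, so leaving it out had to raise the IgG mean. The lower p-values are therefore no separate evidence of a difference. In the fit without IgG animal 1, 4.04% of all genes were lower at that level. There 1517 genes passed it in either direction, against 509 with all animals. With the macrophage markers as a covariate the log2 fold changes were -0.09 ± 0.13 for Spi1, 0.06 ± 0.18 for Csf2rb, 0.21 ± 0.20 for Csf2rb2 and -0.10 ± 0.24 for Csf2ra.

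The balance between the beta chain genes was the ratio that separated the groups. Csf2rb per exon length was 1.53, 1.49, 1.71 and 1.60 times Csf2rb2 in IgG animals 1 to 4 and 1.39, 1.21, 1.47 and 1.45 times in the antibody group. Every antibody value lay below every IgG value, including that of IgG animal 1, although the nearest values, 1.47 and 1.49, were almost equal. The log2 difference was -0.20, between -0.23 and -0.14 with any 1 animal left out, and an exact permutation test gave p = 0.0286, which is the lower limit for 70 assignments. Adjusted over the 6 ratios it did not pass (adjusted p = 0.171, n = 4). Reads that could not be placed on 1 gene were dropped from both counts, and their part in this ratio was not tested. Csf2rb against Csf2ra, the partner chain, ran from 0.604 to 1 in IgG and from 0.664 to 0.815 in the antibody group (log2 difference -0.03, exact permutation p = 0.886, adjusted p = 0.886, n = 4, and a difference of -0.12 without IgG animal 1). The reads dropped from Csf2rb bear on this ratio too, and their part in it was not tested.

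**Figure D4:**
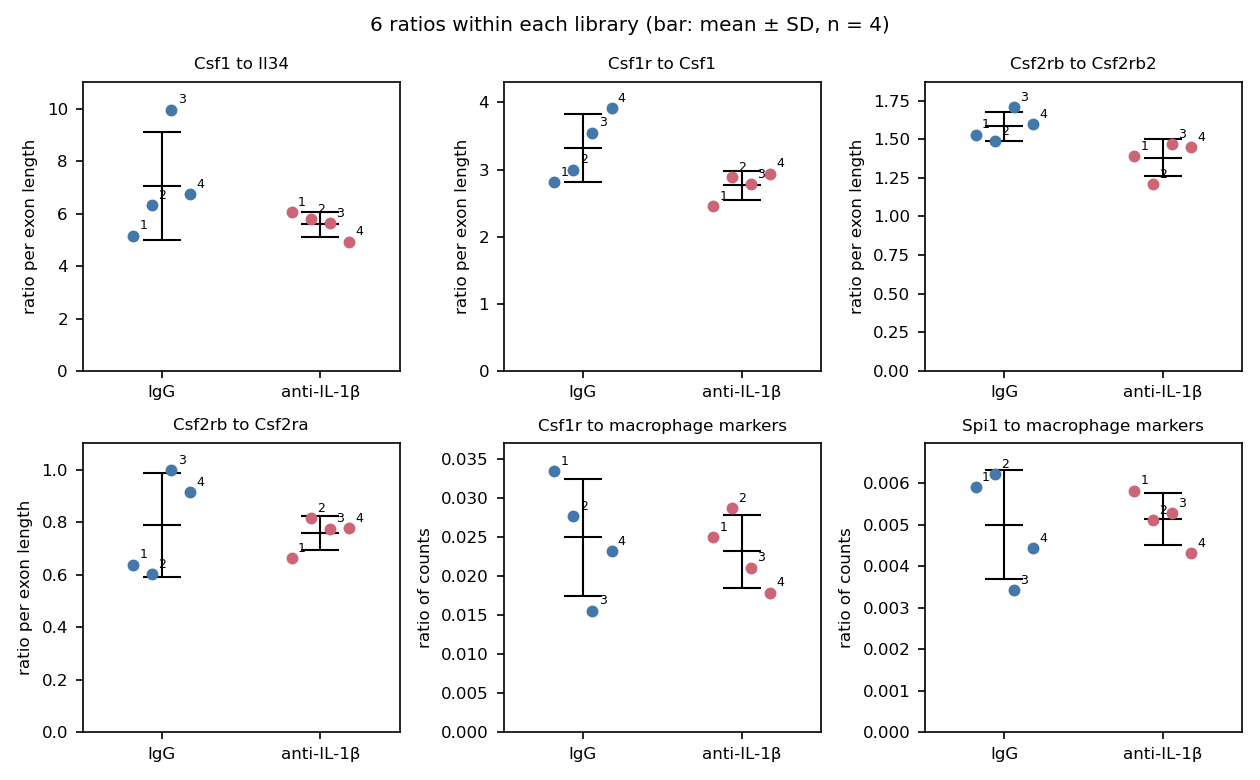
The 6 ratios in each library (axis from 0; per exon length for gene pairs, counts for the macrophage marker sum), 1 numbered point per animal, with bars for the mean ± SD of 4 animals per group. Only for Csf2rb to Csf2rb2 do the groups not overlap, with 1.21 to 1.47 in antibody and 1.49 to 1.71 in IgG animals.

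Across the 8 libraries, the levels of Spi1 and Csf2rb followed the macrophage markers by rank, and for Csf1 the correlation was near 0. For Spi1, Pearson's r with the log2 marker sum was 0.84 (exact permutation p = 0.0108, adjusted p = 0.0757 over 7 relations) and Spearman's rho was 0.86 (exact permutation p = 0.0107, adjusted p = 0.0375). Csf2rb had r = 0.77 (exact permutation p = 0.0237, adjusted p = 0.0829) and rho = 0.86 (exact permutation p = 0.0107, adjusted p = 0.0375). Without IgG animals 3 and 4, the libraries farthest from the median sum, r was 0.76 for Spi1 and 0.64 for Csf2rb, and within the groups, on deviations from the group means, it was 0.82 and 0.76. The labels name no batch, so no relation could be split by one.

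The remaining genes gave weaker relations. Csf1r had r = 0.64 (exact permutation p = 0.0889, adjusted p = 0.156; rho = 0.52, exact permutation p = 0.197, adjusted p = 0.275), which was 0.17 without IgG animals 3 and 4 and so rested on them. Il34 had r = -0.71 (exact permutation p = 0.0421, adjusted p = 0.0983; rho = -0.52, exact permutation p = 0.197, adjusted p = 0.275), which was 0.05 without the same libraries. Csf2rb2 had r = 0.55 (exact permutation p = 0.166, adjusted p = 0.232; rho = 0.55, exact permutation p = 0.171, adjusted p = 0.275). Csf2ra had r = 0.24 (exact permutation p = 0.574, adjusted p = 0.670; rho = 0.38, exact permutation p = 0.36, adjusted p = 0.42). Csf1 had r = 0.07 (exact permutation p = 0.876, adjusted p = 0.876; rho = 0.05, exact permutation p = 0.935, adjusted p = 0.935).

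**Figure D5:**
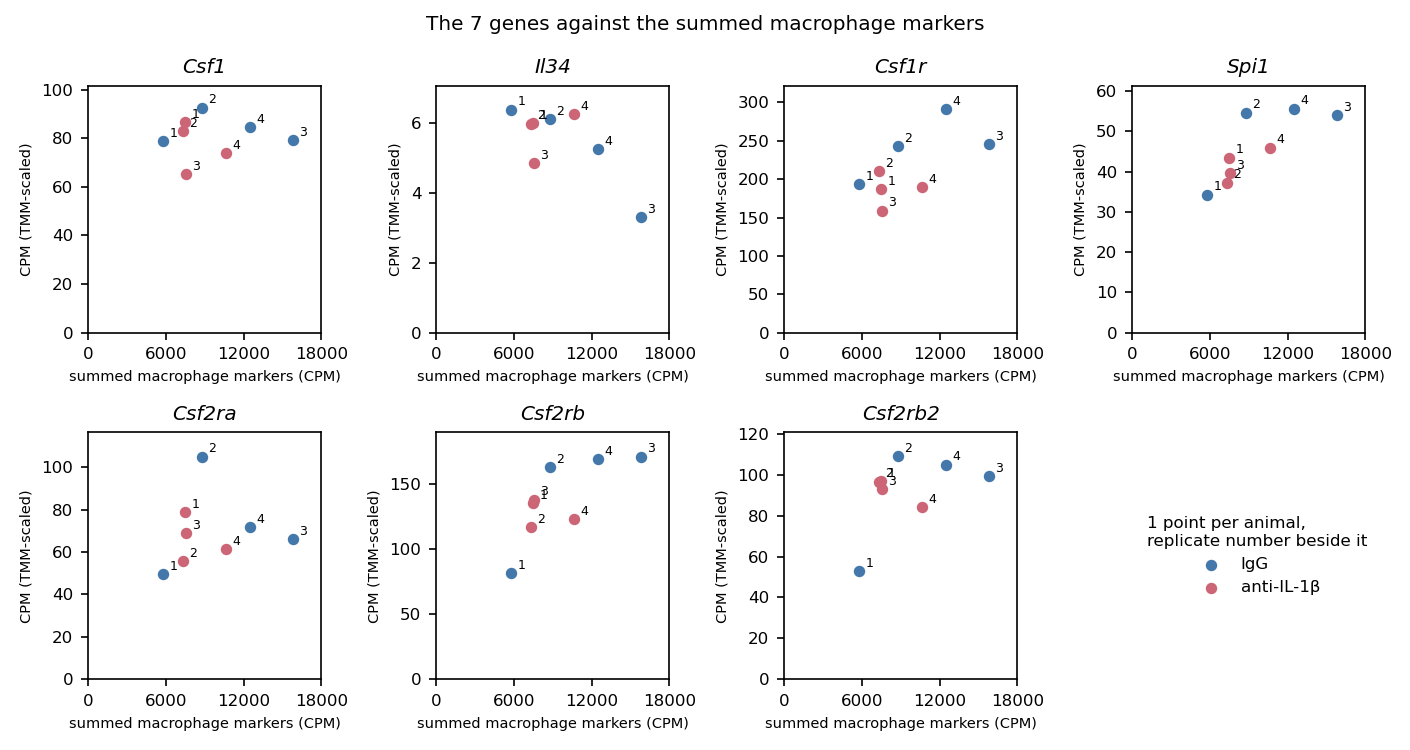
Each gene (CPM) against the summed level of 15 macrophage markers (CPM), 1 numbered point per animal, IgG in blue and antibody in red. Spi1 and Csf2rb climb from IgG animal 1, at a sum of 5808 CPM, to IgG animals 3 and 4, while Csf1 stays between 65.3 and 92.6 CPM.

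The genes whose profiles over the 8 libraries were most like each member were taken as the 3 with the highest Pearson r of log2 CPM among 14634 genes. For Csf1 these were Slc45a4 (r = 0.972), Foxc2 (0.962), a mesenchymal and vascular transcription factor gene, and Cd248 (0.960), a marker of pericytes and fibroblasts. For Il34 they were Aif1l (0.953), Cnih2 (0.942) and Nr2f1 (0.930). Csf1r was most like Pik3cg (0.960), a leukocyte phosphoinositide kinase gene, Dock10 (0.960) and Apaf1 (0.956). Spi1 was most like Samd1 (0.977), Psd4 (0.976) and Syk (0.975), a kinase of immune receptor signalling.

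For Csf2ra the closest were Myh9 (0.987), Lrrc51 (0.981) and Sh2b3 (0.976), an adaptor that restrains cytokine receptor signalling. Csf2rb was closest to Ddhd1 (0.984), Slc6a6 (0.982) and Tnfaip2 (0.980), and Csf2rb2 to Dnmt3a (0.971), Pnpla7 (0.964) and Sfmbt1 (0.957). With 8 libraries such values are usual: the median over all genes of the third best r was 0.968, so they order the partners and show no more.

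Among the related ligands and receptors, transcripts of the GM-CSF, interleukin-3 and interleukin-5 ligands had 0 to 16 counts per library. Of the 13 listed genes, 8 passed the low-count filter, 0 passed the edgeR test in either direction, and 5 of the 8 had fold changes below 0 (median -0.21). That median was -0.03, -0.11, -0.09 and -0.13 without IgG animal 2, 3 or 4 or antibody animal 3, -0.07 with the macrophage covariate and -0.01 in limma-voom. Csf2, which encodes GM-CSF itself, had 13, 0, 14 and 6 counts in IgG animals 1 to 4 and 6, 7, 4 and 9 in the antibody group. Il3 had 10 counts over the IgG and 13 over the antibody animals, Il5 31 and 37, and Il5ra, the interleukin-5 receptor alpha chain, 9 and 4. Csf3, which encodes granulocyte colony-stimulating factor, had 4, 10, 5 and 6 counts in IgG animals and 0, 0, 0 and 2 in the antibody group.

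The Csf3 groups did not overlap (0.137 to 0.461 CPM in IgG and at most 0.0809 CPM in the antibody group), at levels under the filter. How often genes under the filter separate in this way was not computed. Without the filter its edgeR p was 0.00814 unadjusted and 0.997 adjusted over 21589 genes. Its receptor gene Csf3r, a neutrophil and monocyte gene, averaged 21.7 ± 6.45 CPM (SD, n = 4) with IgG and 16.1 ± 0.779 CPM with the antibody, and the log2 fold change was -0.43 ± 0.21.

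Il3ra, the interleukin-3 receptor alpha chain, had a log2 fold change of -0.19 ± 0.19. For the other growth factor receptors and ligands of blood cells the values were -0.23 ± 0.38 for Flt3, -0.23 ± 0.20 for Flt3l, 0.12 ± 0.23 for Kit and 0.10 ± 0.10 for Kitl. Ptprz1 and Sdc1 encode surface proteins reported as further binding partners of IL-34. Ptprz1 had 0.31 ± 0.28 and Sdc1 -0.29 ± 0.28.

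In the list of signalling genes downstream of these receptors, 17 of 20 had fold changes below 0 (median -0.18), against 52.3% of all genes, and 0 of 20 passed the edgeR test in either direction. The median was -0.31 without IgG animal 1 and -0.09 with the macrophage covariate. Every antibody value lay below every IgG value for 1 of the 20, Pik3r1 (-0.16 ± 0.11), a phosphoinositide kinase subunit gene named here after its values were seen, against 1.25% of all genes. Among those with the smallest p were genes of myeloid receptor signalling: the phosphatase genes Ptpn6 (-0.36 ± 0.16) and Inpp5d (-0.30 ± 0.15), and the phospholipase gene Plcg2 (-0.33 ± 0.15). Of the myeloid transcription factor genes, 15 of 16 were kept, 12 of these were below 0 (median -0.23), and 0 passed. The median was -0.37 without IgG animal 1, -0.15 without IgG animal 4 and -0.08 with the macrophage covariate. In 2 of the 15, Maf and Ikzf1, every antibody value lay below every IgG value, as in 1.25% of all genes. Both had an adjusted p of 0.9997 in the edgeR test. Maf, a macrophage transcription factor gene, averaged 61.6 ± 4.02 CPM with IgG and 47.6 ± 2.96 CPM with the antibody (log2 fold change -0.37 ± 0.09). Ikzf1, a lymphoid and myeloid factor gene, had 48.5 ± 3.51 and 35.8 ± 4.61 CPM (-0.44 ± 0.12). Spib and Spic, the closest relatives of Spi1, were low, with log2 fold changes of -1.32 ± 0.62 and -0.65 ± 0.38.

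All 18 listed PU.1 target genes had fold changes below 0 (median -0.27), where 52.3% of all genes were below 0, and 0 of 18 passed the edgeR test. The median was -0.44 without IgG animal 1, -0.12 without IgG animal 3, -0.41 in limma-voom and 0.01 with the macrophage covariate. Of these 18, Cd14, Fcgr1, Itgam and Lyz2 are also on the macrophage marker list, all 15 genes of which were below 0 as well (median -0.31). The smallest p was that of Il1b, the gene of the antibody's target. It had 9.31 ± 3.61 CPM with IgG and 4.50 ± 0.551 CPM with the antibody (log2 fold change -1.05 ± 0.26, edgeR adjusted p = 0.9997). Il1b was the 1 gene of the 18 whose groups did not overlap, against 1.25% of all genes with every antibody value lower. Next were the pan-leukocyte gene Ptprc (-0.43 ± 0.14), the lipopolysaccharide co-receptor gene Cd14 (-0.47 ± 0.24) and the NADPH oxidase subunit gene Ncf1 (-0.42 ± 0.22).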

How the data were processed

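RNA of 8 arteries, 4 per group, was analysed, with groups and replicate numbers from the sample titles. The deposited values are raw counts per gene symbol. They come from featureCounts 1.4.6-p4, which summed exonic reads per gene, per the file headers, on the mm9 UCSC annotation, with no option for strand or multimapping reads. The submitters' processing notes also name STAR 3.0, CASAVA, Subread and DESeq2. In the deposited table of alignment counts by status, 35.2% to 48.0% of alignments per library were multimapping and left out.

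Genes were filtered with filterByExpr (minimum count 10, minimum total 15; 15980 of 24391 kept), scaled by TMM and tested with edgeR 4.0.16 quasi-likelihood F-tests in R 4.3.3, with Benjamini-Hochberg adjustment over all genes kept. The code was tested on simulated data. Ratios used counts plus 0.5 over the deposited exon length and two-sided exact permutation tests. DESeq2 1.42.0, limma-voom (limma 3.58.1), other scalings, no filter, a replicate block, a macrophage covariate and leaving out each animal were alternatives. Profile likeness was computed for genes averaging at least 1 CPM, on log2 values with prior count 2. Named genes were the 7 members, the related ligands and receptors, the 4 genes with the smallest p of the other 3 pathway lists and the 3 genes most like each member, of which 1 pathway gene is not reported here. The members and all lists (4 pathway and 12 marker lists) were chosen with earlier results of these data known, and the relation to the macrophage markers was added after seeing the data. All pairs of libraries differed by more than counting error (lowest chi-square per degree of freedom 27.9).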

Additional observations from a re-analysis of the deposited data

Results flagged for a closer look

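In 3 of 26 groups of 4 values screened (7 genes and 6 ratios in each group), 1 animal lay far from the other 3, and in each it was IgG animal 1. Its Spi1 level was 34.3 CPM against 54.0 to 55.7 CPM in the other IgG animals, its Csf2rb level 81.4 CPM against 163 to 171 CPM, and its Csf2rb2 level 52.9 CPM against 99.5 to 109 CPM. Chance flags about 1 in 20 such groups, and these 3 share a library. The same animal had the lowest macrophage marker sum, 5808 CPM, and the highest T cell and thymus marker sum, 115 CPM, and the part of either in the low values was not tested. Antibody animal 2, which was not flagged, had a T cell and thymus sum of 95.1 CPM.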

How the results depend on the processing

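Every alternative left the 7 genes without a call (smallest adjusted p 0.150, for Csf1r in limma-voom), and 0 genes of the 4 pathway lists were called. Over all genes, edgeR called 0, DESeq2 8 and limma-voom 2, and 0 to 1 with 1 animal left out. The fold changes of Csf1 (-0.18 to -0.05), Csf1r (-0.56 to -0.28) and Spi1 (-0.39 to -0.09) kept their sign throughout. Signs turned for Il34 without IgG animal 3 (-0.04), Csf2ra without IgG animal 2 (0.09), Csf2rb with the macrophage covariate (0.06), and Csf2rb2 in limma-voom (-0.11) or without IgG animal 1 (-0.17) or antibody animal 1 or 2 (-0.01 each). Leaving out 1 animal gave -0.04 to 0.24 for Il34, -0.29 to 0.09 for Csf2ra and -0.17 to 0.11 for Csf2rb2. Ratio differences in log2 turned for Csf2rb to Csf2ra (-0.15 to 0.10), Csf1r to macrophage markers (-0.28 to 0.08) and Spi1 to macrophage markers (-0.10 to 0.19) when 1 animal was left out. The cause was not tested. With the replicate number as a replicate block, 361 genes had an unadjusted p under 0.05 against 509 without it, 0 were called, and Csf1r was at -0.38. Same-numbered animals did not deviate together (correlations 0.293, -0.344, -0.127 and -0.001), so the numbers were not taken as pairs. Il34 had the lowest counts of the 7 genes, 92 to 187 per library.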
